A study of Mus musculus with 298 samples.

Results

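The 9 genes described here encode the mouse T cell receptor and its coreceptors. They were chosen by name as a set of receptor and coreceptor genes, and all 9 were found among the 14605 genes of the expression table. Cd3d, Cd3e and Cd3g encode the CD3 delta, epsilon and gamma chains, Trac the constant part of the receptor alpha chain, and Trbc1 and Trbc2 the alternative constant parts of the beta chain. Cd4 encodes the coreceptor CD4, and Cd8a and Cd8b1 encode the alpha and beta chains of the coreceptor CD8.

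RNA from blood of 20 C57BL/6 mice was sequenced week by week. All mice, controls included, carried both transgenes of the SCLtTA/BCR-ABL model (tTA+/- and BCR-ABL+/-). In this model a stem and progenitor cell promoter drives the tetracycline transactivator, which switches on human BCR-ABL, the fusion kinase of chronic myeloid leukaemia (CML), once tetracycline is taken out of the drinking water. The CML cohort (6 mice, 94 libraries) was kept without tetracycline. The TKI cohort (7 mice, 99 libraries) was also kept without it and received the BCR-ABL kinase inhibitor nilotinib at 50 mg/kg daily by gavage for 4 weeks from week 6. The TOTO cohort (4 mice, 48 libraries) was kept without tetracycline for 6 weeks and with it for the next 12. Control mice (3 animals with 57 libraries) drank tetracycline at 0.5 g/L throughout. Mice were 6 to 8 weeks old at the start, per the labels. The labels do not say whether the blood of week 6 was taken before the first dose. The last library came from week 18 in TOTO and control mice, from weeks 7, 11, 16 and 18 in CML mice and from weeks 10, 11, 12 and 16 in TKI mice.

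A T cell reads peptides on MHC molecules through an alpha and a beta chain. These chains have no signalling tail of their own and depend on the CD3 chains, whose tyrosine motifs are phosphorylated by the kinase Lck. CD4 binds MHC class II and marks helper and regulatory T cells, and CD8 binds MHC class I and marks cytotoxic T cells, so that the level of Cd4 relative to Cd8a follows the balance of these lineages in blood. In bulk RNA fewer T cells and less of an mRNA per T cell cannot be told apart, and a rise of another cell type lowers the share left for T cell transcripts.

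Levels are given as TPM, a relative transcript abundance corrected for transcript length. TPM keeps no sequencing depth, so the depth is unknown and no counting error can be given. Genes at 1 TPM or more numbered 2552 to 13256 per library (median 9965). The lowest number, 2552, belonged to the week 17 library of control mouse 490, which stood apart. It had Cd3e at 112 TPM and Cd3g at 74.9 TPM, while Cd4, Cd8a, Trac, Trbc1 and Trbc2 were listed at 0. It entered no change between weeks compared below. The genes used for rescaling were those present in every library, this one included. It also counted in the medians over all libraries and in a list of correlations given below. The mouse labelled CML 487 had human BCR-ABL at 0 to 0.409 TPM over its 19 libraries, inside the control range of 0 to 0.716 TPM, whereas the other CML mice had 0.358 to 10.6 TPM at week 6. Results that use this mouse are also given without it where that changes them.

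The 3 CD3 genes sit side by side on chromosome 9 (GRCm39, GENCODE M39 coordinates): Cd3g at 44880870 to 44891735 on the minus strand, Cd3d at 44893083 to 44899173 on the plus strand and Cd3e at 44910037 to 44920925 on the minus strand. Chromosome 6 holds the beta chain constant genes Trbc1 (41515152 to 41516815) and Trbc2 (41523664 to 41525286), then Cd8b1 (71299772 to 71315087) and Cd8a (71350411 to 71356157), all on the plus strand, and Cd4 (124841655 to 124874758) on the minus strand. Trac lies on chromosome 14 at 54457978 to 54461663 on the plus strand. All are protein-coding or receptor constant-region genes in that annotation.

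The bases just before a transcript start of 4 of these genes are shown. The reason is that 8 or 9 of the 9 members were called in the same direction under nilotinib, after it and after the return of tetracycline. They cover 250 bases up to the start of the Ensembl canonical transcript, 5′ to 3′ on the strand of the gene. For Cd3e and Cd4 this start, 44920911 and 124865184, lies inside the gene span given above. They are chr9:44892833-44893082 for Cd3d (plus strand), chr9:44920912-44921161 for Cd3e (minus), chr6:124865185-124865434 for Cd4 (minus) and chr6:71299522-71299771 for Cd8b1 (plus). Capitals mark matches to the motifs searched.
Cd3d: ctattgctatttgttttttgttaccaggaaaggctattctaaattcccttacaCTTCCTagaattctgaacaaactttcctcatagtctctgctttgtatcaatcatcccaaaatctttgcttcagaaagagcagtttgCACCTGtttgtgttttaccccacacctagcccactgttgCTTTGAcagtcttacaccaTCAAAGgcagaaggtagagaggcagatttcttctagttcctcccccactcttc
Cd3e: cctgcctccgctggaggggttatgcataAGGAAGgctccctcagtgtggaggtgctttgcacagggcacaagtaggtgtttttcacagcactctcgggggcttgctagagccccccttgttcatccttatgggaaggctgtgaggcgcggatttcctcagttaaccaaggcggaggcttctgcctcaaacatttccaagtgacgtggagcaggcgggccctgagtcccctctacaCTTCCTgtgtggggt
Cd4: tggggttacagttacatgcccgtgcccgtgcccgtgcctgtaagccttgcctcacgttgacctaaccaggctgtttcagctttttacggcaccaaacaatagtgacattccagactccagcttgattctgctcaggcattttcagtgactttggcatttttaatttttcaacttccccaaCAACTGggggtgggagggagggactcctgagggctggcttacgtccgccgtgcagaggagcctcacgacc
Cd8b1: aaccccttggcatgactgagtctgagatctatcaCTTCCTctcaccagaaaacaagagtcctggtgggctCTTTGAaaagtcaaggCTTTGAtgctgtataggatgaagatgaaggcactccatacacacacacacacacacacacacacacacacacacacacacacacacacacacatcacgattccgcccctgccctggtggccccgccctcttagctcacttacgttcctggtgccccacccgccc

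Short motifs of transcription factors active in lymphocytes were searched on both strands in the promoters of the 6 members that have one of their own. The constant-region genes Trac, Trbc1 and Trbc2 are transcribed from a rearranged variable segment and were left out. The letters AGGAAG, the core bound by ETS factors, were found in 3 of the 6 (Cd3d, Cd3e and Cd8b1). Of 21770 promoters of the same length, those of protein-coding genes in GENCODE M39, 28.9% held them. An E-box, searched as CAGNTG, was found in 3 members (Cd3d, Cd3g and Cd4), against a share of 43.0% over all promoters. The TCF motif, searched as CTTTGA, was found in 2 members (Cd3d and Cd8b1), against a share of 14.1% over all promoters. The GATA motif, searched as AGATAA, was found in 1 member (Cd3g), against a share of 9.60% over all promoters. The RUNX motif, searched as TGTGGT, was found in 0 of the 6 members, against a share of 13.0% over all promoters. No matches in the members overlapped each other. A match is a description of these letters and not of binding.

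Trbc1 and Trbc2 are near-identical copies, which limits how far their separate TPM values can be read. Over 521 coding bases they were 95.6% identical with 23 mismatches, of which 1 lay in the first 381 bases and 22 in the last 140. The last 140 coding bases of each (GENCODE transcripts, plus strand) are shown with the bases that differ in capitals, since reads from this stretch tell the copies apart. The bases of the transcripts outside the coding part were not compared.
Trbc1: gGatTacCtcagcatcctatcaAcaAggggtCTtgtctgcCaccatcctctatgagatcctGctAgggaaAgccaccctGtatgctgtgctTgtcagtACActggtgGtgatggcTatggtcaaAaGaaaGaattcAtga
Trbc2: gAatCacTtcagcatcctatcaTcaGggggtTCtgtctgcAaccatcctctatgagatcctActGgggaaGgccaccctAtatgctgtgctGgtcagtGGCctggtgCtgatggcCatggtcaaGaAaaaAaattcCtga

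Over all libraries the alpha and beta chain constant genes had higher median levels than the coreceptors. Trbc2 had the highest median, 27.8 TPM (quartiles 19.98 and 41.2 without the library that stood apart), followed by Trac with 14.8 TPM. Trbc1 and Cd3e followed with 11.6 and 11.5 TPM and could not be ordered, Trbc1 being the higher in 195 libraries. Cd3g (8.08 TPM) and Cd8b1 (7.98 TPM) also could not be ordered, Cd3g being the higher in 175 libraries. Cd8b1 was above Cd3d (5.14 TPM) in 290 libraries and in 20 of 20 mice. Cd3d and Cd8a (4.85 TPM) were close, Cd3d being the higher in 185 libraries. Cd4 was the lowest member, with a median of 2.53 TPM, and it was below Cd8a in 283 libraries and in the medians of 20 of 20 mice. Cd4 reached 1 TPM in 260 libraries. Below that level adding 1 TPM before taking logs, as was done for all log2 values here, shrinks a difference.

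**Figure D1:**
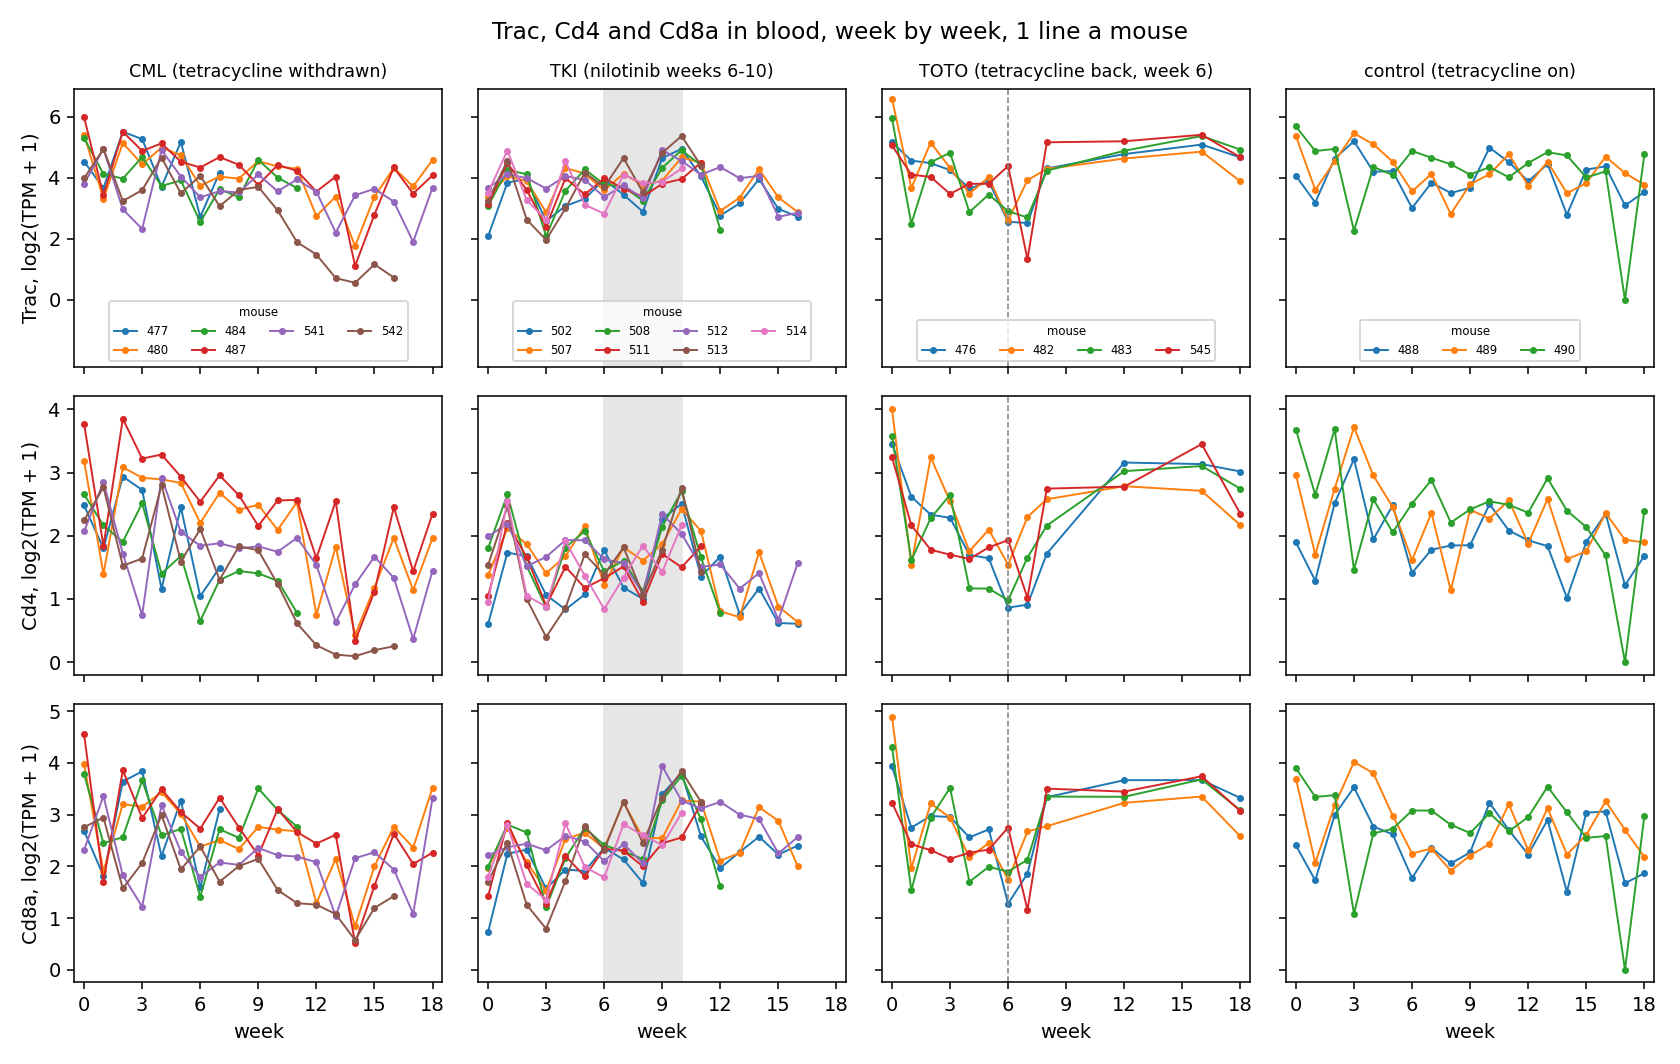
Trac, Cd4 and Cd8a as log2(TPM + 1) by week, 1 line per mouse, with a panel per gene and cohort. The grey band is the nilotinib treatment and the dashed line the return of tetracycline. Trac is higher at week 10 than at week 6 in the TKI mice other than 511, and all 3 genes are higher at week 18 than at week 6 in the TOTO mice.

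Over the first 6 weeks without tetracycline a minority of the members fell, and the direction of the means differed between cohorts that had been treated alike up to then. Over 17 mice of the 3 cohorts without tetracycline, 3 of 9 members fell at week 6 against week 0 and 0 rose, with limma adjusted p-values (Benjamini-Hochberg over 10519 genes) of at most 0.05. Of all genes tested 13.6% were called lower. The 3 were Trbc1 (log2 change -1.10 ± 0.35, SE, adjusted p = 0.0229, lower in 13 of 17 mice), Cd4 (-0.86 ± 0.29, adjusted p = 0.0334, lower in 15 of 17) and Cd3g (-0.93 ± 0.34, adjusted p = 0.0458, lower in 13 of 17). The median over the 9 members was -0.86, beside -0.34 over all genes.

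The TOTO mice carried the largest falls. Trac had 4.93, 5.10, 6.49 and 20.01 TPM in TOTO mice at week 6, against 35.0, 95.8, 61.0 and 32.5 TPM in the same mice at week 0, without overlap. All 9 members were lower in 4 of 4 TOTO mice, with mean log2 changes of -2.58 (Trac) to -1.70 (Cd3d). CML mice had Trac at 5.60, 12.4, 4.88, 19.3, 9.31 and 15.8 TPM at week 6, against 22.2, 41.8, 38.6, 62.5, 13.0 and 14.9 TPM at week 0, lower in 5 of 6. TKI mice moved the other way in most members, with mean log2 changes of 0.05 (Cd4) to 0.74 (Cd8b1, higher in 6 of 7 mice). Their Trac was already low at week 0, with a median of 8.53 TPM, against 30.4 TPM in CML, 48.0 TPM in TOTO and 40.5 TPM in control mice. Control mice fell as well, with Trac at 7.08, 10.8 and 28.6 TPM at week 6 against 15.8, 40.5 and 50.5 TPM at week 0, and all 9 members were lower in 3 of 3 mice (means -1.27 to -0.87). These differences between cohorts were not tested.

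The labels give each mouse a batch, 2021_E, 2022_A or 2022_B. The median over members was -0.91 for the 2 mice of 2021_E. It was -1.21 for the 10 mice of 2022_A. For the 5 mice of 2022_B it was -0.19, and 2 of 9 members had values above 0 there. After rescaling each library by a median-ratio size factor over 4339 genes present in every library, 8 of 9 members fell, with a median of -0.52 and with 38.2% of all genes called lower. Cd8b1 was the exception (-0.18, adjusted p = 0.0642). The B cell list fell in 15 of 15 genes and the NK cell list in 9 of 12, while 13 of 14 neutrophil and 8 of 10 platelet genes rose. The summed neutrophil level had a median of 8459 TPM at week 6, against 1558 TPM at week 0. Their part in the result was not tested.

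When the change of the control mice was subtracted, 0 of 9 members passed by limma, as deposited and after rescaling. As deposited 0.0190% of all genes were called (264 at an unadjusted p under 0.05), and after rescaling 16.3%. The differences ran from 0.01 to 0.36 as deposited, beside an all-gene median of 0.40, and from -0.53 to -0.15 after rescaling, so that their direction depended on the scale. A difference between mice without tetracycline and the 3 controls was thus not detectable in any member.

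Under 4 weeks of nilotinib all 9 receptor and coreceptor genes rose, by 0.85 to 1.14 on the log2 scale. Trac had 30.0, 24.5, 29.0, 14.6, 22.5, 40.5 and 18.8 TPM at week 10 in TKI mice 502, 507, 508, 511, 512, 513 and 514, against 14.4, 11.0, 12.8, 14.9, 9.37, 12.0 and 6.09 TPM at week 6. It was higher in 6 of 7 mice, and at week 10 the value of mouse 511 overlapped those of week 6. Cd4 had 4.68, 4.36, 5.52, 1.83, 3.09, 5.74 and 3.49 TPM at week 10, against 2.42, 1.33, 1.71, 1.51, 2.09, 1.61 and 0.790 TPM at week 6, and was higher in 7 of 7 mice. Cd8a had 13.0, 8.67, 12.5, 4.89, 8.65, 13.3 and 7.19 TPM at week 10, against 4.12, 4.09, 4.31, 4.06, 3.29, 4.00 and 2.45 TPM at week 6. Here the groups did not overlap. The 3 control mice, which received no nilotinib, also had higher medians at week 10 than at week 6. Trac had 19.5 against 10.8 TPM, Cd4 4.66 against 2.06 TPM, Cd8a 7.17 against 3.75 TPM and Cd3d 10.2 against 4.05 TPM. The change in TKI mice was not tested against that of control mice.

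By limma 9 of 9 members rose, whereas 3.14% of all genes were called higher. The log2 changes ran from 0.85 ± 0.25 (SE, Cd3d, adjusted p = 0.0348) to 1.14 ± 0.25 (Cd8b1, adjusted p = 0.00661), with a median of 1.07 beside 0.07 over all genes. Between these lay Cd4 (0.93 ± 0.19, adjusted p = 0.00426) and Cd8a (1.12 ± 0.23, adjusted p = 0.00439). After rescaling 9 of 9 passed with a median of 1.04, where 19.5% of all genes were called higher. By batch, the members' median was 1.19 over 4 mice (2022_A) and 0.96 over 3 mice (2022_B).

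Trac in TKI mice had medians of 12.0, 12.5, 9.45, 19.2 and 24.5 TPM at weeks 6, 7, 8, 9 and 10. Control mice had 10.8, 16.5, 10.4, 12.9 and 19.5 TPM in the same weeks. With week 9 in place of week 10, 0 of 9 members passed, with a median log2 change of 0.70 in place of 1.07. The share of all genes called at week 9 is not given here, so this count does not date the rise. In a fit without the mouse as a block 0 of 9 passed, at the same median change of 1.07. The mouse counted as a block because both libraries of a pair came from 1 animal.

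TKI mouse 511 stood apart. The median change of the members was 1.08 to 1.37 in 6 mice and 0.04 in mouse 511, whose 9 changes lay between -0.06 and 0.22. Mouse 511 had the highest summed neutrophil level of the 7 at week 10, 7372 TPM against 1467 to 6423 TPM in the others, and the lowest summed B cell and NK cell levels (644 and 25.5 TPM). Its human BCR-ABL stood at 8.79 TPM, within the 4.29 to 21.0 TPM of the cohort. Without mouse 511 the 9 calls stood, whereas 5 of 9 members passed without TKI mouse 508 and 6 without TKI mouse 502 or 514.

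Of 26 genes of T cell receptor signalling 14 rose and 0 fell under nilotinib, and the other 12 did not pass (21 rose and 2 fell after rescaling). Among them were the costimulatory receptor Cd28 (1.14, adjusted p = 0.0017), the inhibitory surface protein Cd5 (0.98, adjusted p = 0.0042) and Themis (0.94, adjusted p = 0.00463), a signalling protein of thymocytes. Of 11 genes of naive T cells 7 rose (8 rose and 1 fell after rescaling), among them the interleukin 7 receptor Il7r (1.17), the lymphocyte egress receptor S1pr1 (0.96) and the transcription factor Bcl11b (0.89). Of 13 beta chain variable segments tested 10 rose (13 after rescaling), with Trbv12-2 at 0.95, Trbv13-2 at 0.87 and Trbv3 at 0.85. Genes of CD8 effector cells rose in 2 of 11 (9 of 11 after rescaling). As deposited these were the chemokine receptor Cxcr3 (0.53, adjusted p = 0.0495) and the transcription factor Eomes (0.50, adjusted p = 0.0497). B cell genes rose in 2 of 15 and NK cell genes in 1 of 12, and after rescaling in 10 of 15 and 1 of 12. Of the list of CD4 lineage and regulatory T cells Zbtb7b alone was tested, a transcription factor that commits T cells to the CD4 lineage. It did not pass as deposited (-0.58, adjusted p = 0.126) and fell after rescaling (-0.59, adjusted p = 0.00148), while Cd4 rose on both scales. Relative to CML mice over the same weeks Zbtb7b was also lower after rescaling (-0.68, adjusted p = 0.017). Zbtb7b had a median of 11.4 TPM over all libraries, against 2.53 TPM for Cd4. In which blood cells its transcripts lay was not tested. All 14 neutrophil genes fell, and their summed level had a median of 3282 TPM at week 10, against 16169 TPM at week 6. Its part in the rise was not tested.

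The same weeks in 5 CML mice that received no nilotinib served as the comparison. Trac had 19.8, 15.1, 20.5, 10.8 and 6.66 TPM at week 10 in CML mice 480, 484, 487, 541 and 542, against 12.4, 4.88, 19.3, 9.31 and 15.8 TPM at week 6, so that it was higher in 4 and lower in 1. The change in TKI mice exceeded that in CML mice by 0.47 (Cd3d) to 1.01 (Cd4) on the log2 scale, and 0 of 9 members passed (3.46% of all genes called, and 1397 genes at an unadjusted p under 0.05). Cd4 came closest (1.01 ± 0.30, SE, limma adjusted p = 0.0566). Cd4 passed without CML mouse 484, TKI mouse 511 or TKI mouse 512, with adjusted p-values down to 0.0298. After rescaling 8 of 9 were called higher in TKI mice (9.44% of all genes), with a median of 0.95, and Cd3d was not (0.62, adjusted p = 0.062). CML mouse 484 rose by a median of 1.92 without treatment, more than any TKI mouse. These CML mice also had fewer neutrophil transcripts at week 6 (median 978 TPM) than the TKI mice, so that the cohorts did not start alike. Within batch 2022_A the median over members was 1.19 in 4 TKI mice and 1.92 in 1 CML mouse. In 2022_B it was 0.96 in 3 TKI mice and -0.43 in 2 CML mice, and 2021_E held no TKI mouse.

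**Figure D2:**
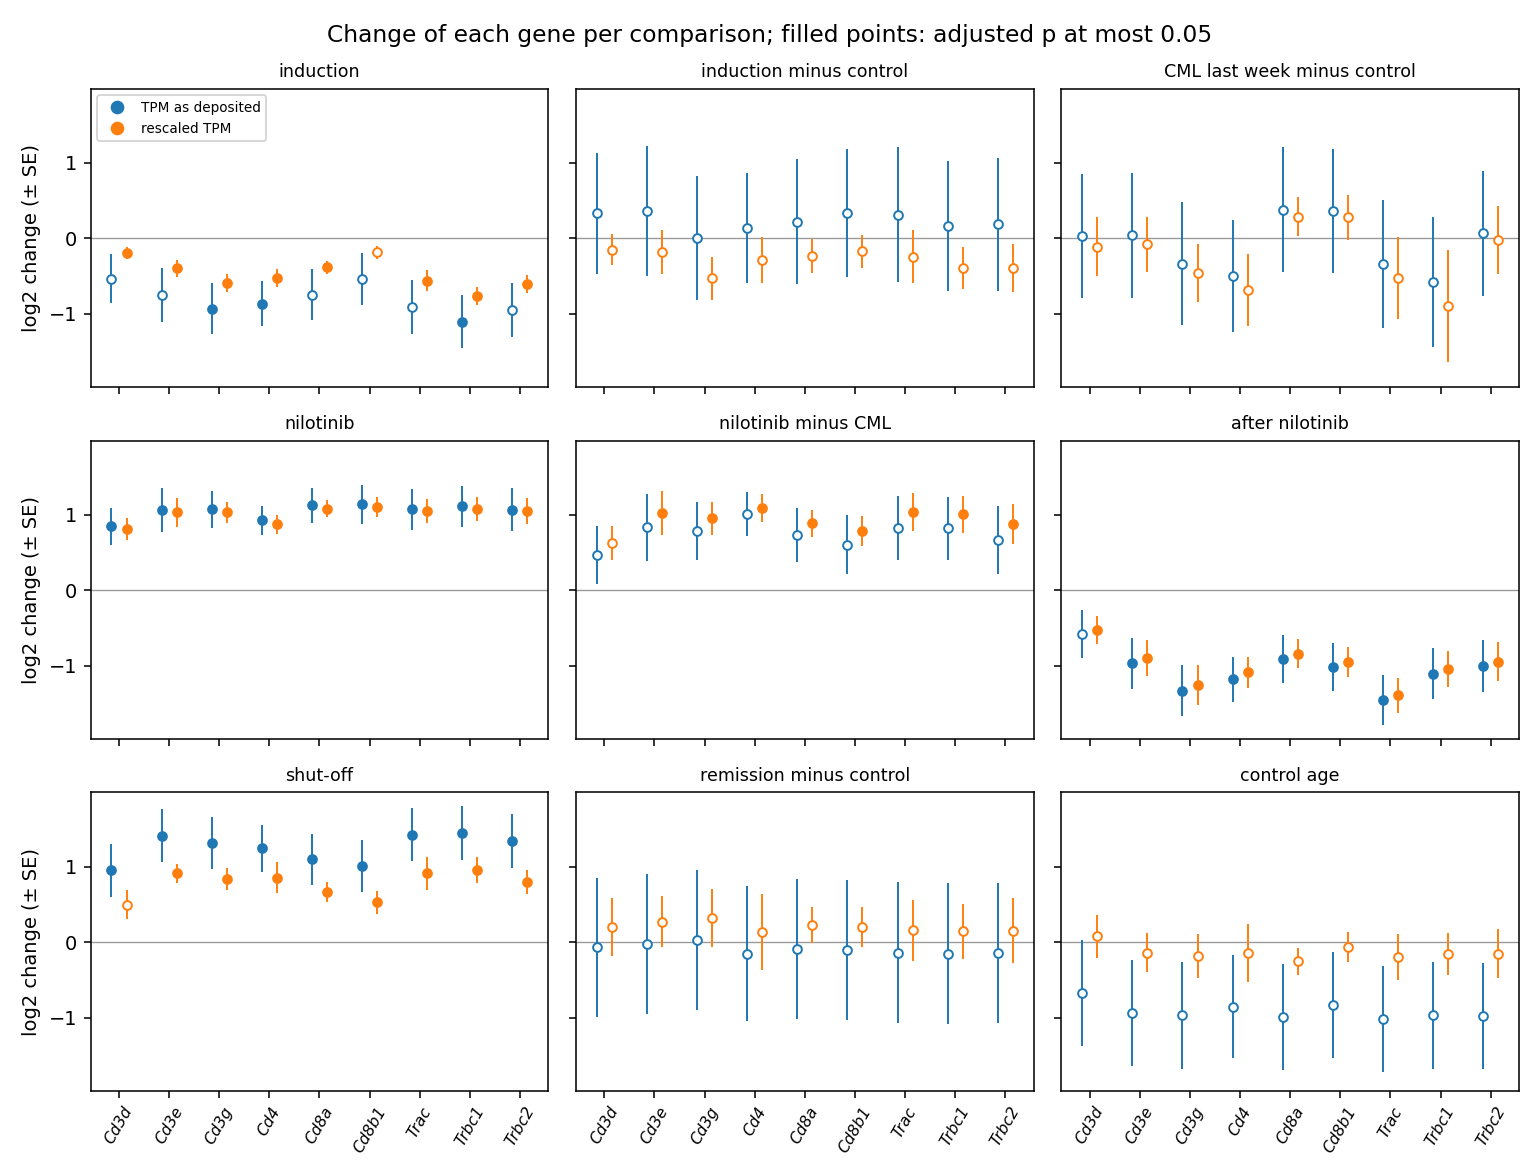
Log2 change or difference ± SE of the 9 members, 1 panel per comparison. Induction is week 6 minus week 0 without tetracycline, nilotinib week 10 minus week 6 and after nilotinib the last week minus week 10 in TKI mice. Shut-off is week 18 minus week 6 in TOTO mice, and remission and control age are week 18 minus week 0 in TOTO and control mice. A second name after minus is the cohort whose change was subtracted. Blue points are values as deposited and orange points rescaled values, filled where the limma adjusted p was at most 0.05. The nilotinib and shut-off panels hold their filled points above 0, and the panel after nilotinib holds them below 0.

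After nilotinib was stopped all 9 members were lower at the last week in 5 of 6 mice. Trac had 5.65, 6.36, 3.95, 21.7, 6.25 and 20.2 TPM at the last week of TKI mice 502, 507, 508, 511, 512 and 513, against 30.0, 24.5, 29.0, 14.6, 22.5 and 40.5 TPM at week 10. The mice followed to week 12 or 16 were at or below 6.36 TPM and the 2 with a last library at week 11 at or above 20.2 TPM, so that these differ in time as well. Cd4 had 0.523, 0.552, 0.712, 2.56, 1.96 and 1.68 TPM at the last week, against 4.68, 4.36, 5.52, 1.83, 3.09 and 5.74 TPM at week 10.

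Of 9 members 8 fell by limma, beside 16.0% of all genes called lower. The largest changes were in Trac (-1.46 ± 0.33, SE, adjusted p = 0.00153), Cd3g (-1.33 ± 0.34, adjusted p = 0.00455) and Cd4 (-1.18 ± 0.30, adjusted p = 0.00374), and Cd3d did not pass (-0.58 ± 0.32, adjusted p = 0.19). The median was -1.02, beside -0.06 over all genes. Rescaled values gave 9 of 9 lower, with a median of -0.95 (23.6% of all genes called lower). Mouse 511 again differed, with all 9 members higher and a median of 0.84. The other mice had medians of -2.34 to -0.66 and all 9 members lower in each. Within batch 2022_A (4 mice, last weeks 12 and 16) the median over members was -1.60. In 2022_B (mice 511 and 513, last week 11) it was 0.04, with 7 of 9 members above 0, where all 9 were higher in mouse 511 and all 9 lower in mouse 513. At week 11, when all 6 mice had a library, the medians over members against week 10 were -1.06, -0.14, -0.80 and -0.15 in mice 502, 507, 508 and 512 of 2022_A, against 0.84 and -0.66 in mice 511 and 513. In 2022_A the members were lower still after week 11, with medians of -1.46 to -0.75 from week 11 to the last week and 8 or 9 of 9 members lower in each mouse. With week 11 as the last week of every mouse, a setting chosen after seeing the data, 1 of 9 members passed. It was Cd4 (-0.68, limma adjusted p = 0.014), and the median over members was -0.36. Without any filter on mean TPM 2 members passed, and without mouse 508 or 502 the count was 3 or 4.

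The genes linked to the receptor fell too, 12 of 26 signalling genes against 2 that rose (17 and 2 after rescaling). The adaptor Grap2 (-2.24) and the kinase Fyn (-2.02) were among them, both with a change beyond the -1.46 of Trac. Grap2 had a median of 48.5 TPM over all libraries, against 14.8 TPM for Trac. In which blood cells the Grap2 and Fyn transcripts lay was not tested. Naive T cell genes fell in 5 of 11, with S1pr1 at -1.42, while the quiescence factor Klf2 rose (1.08, adjusted p = 0.00873). CD8 effector genes fell in 7 of 11, with the granule proteins Gzma (-1.64) and Prf1 (-1.29) and the transcription factor Tbx21 (-0.96). Of the 13 variable segments 6 fell, among them Trbv13-2 (-1.87). After rescaling CD8 effector genes fell in 10 of 11 and variable segments in 11 of 13, and Zbtb7b rose (0.75, adjusted p = 0.0133, against 0.0509 as deposited). B cell genes fell in 15 of 15, NK cell genes in 10 of 12 and platelet genes in 10 of 10, and 14 of 14 neutrophil genes rose. The platelet list had a median change of -2.60, the lowest of the lists. Its summed level had a median of 4508 TPM at the last week, against 14174 TPM at week 10. The summed neutrophil level had a median of 25681 TPM at the last week, against 4180 TPM at week 10. The part of these cells in the result was not tested.

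After tetracycline was returned the members rose, with higher levels in all 4 TOTO mice. Trac had 24.5, 13.8, 29.5 and 24.6 TPM at week 18 in TOTO mice 476, 482, 483 and 545, against 4.93, 5.10, 6.49 and 20.01 TPM at week 6. Cd4 had 7.10, 3.49, 5.70 and 4.08 TPM at week 18, against 0.819, 1.91, 0.971 and 2.81 TPM at week 6, without overlap. Cd8a had 9.00, 4.97, 7.47 and 7.39 TPM at week 18, against 1.43, 2.35, 2.73 and 5.72 TPM at week 6. For Trac and Cd8a only the week 6 value of mouse 545 lay among those of week 18.

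By limma 9 of 9 members rose, in a comparison where 22.2% of all genes were called higher. The log2 changes ran from 0.95 ± 0.35 (SE, Cd3d, adjusted p = 0.0405) to 1.45 ± 0.36 (Trbc1, adjusted p = 0.00369). Trac changed by 1.42 ± 0.35 (adjusted p = 0.00345) and Cd4 by 1.24 ± 0.31 (adjusted p = 0.00408). The median was 1.31, beside 0.44 over all genes. After rescaling the median was 0.83 and 8 of 9 rose (29.8% of all genes called higher), with Cd3d at 0.50 (adjusted p = 0.0524). Trac in TOTO mice had medians of 5.80, 18.7 and 27.6 TPM at weeks 6, 8 and 12, against 10.8, 10.4 and 13.8 TPM in control mice. By limma 9 of 9 members were called at week 8 (median log2 change 1.39) and 9 of 9 at week 12 (median 1.70). The share of all genes called at weeks 8 and 12 is not given here, so these counts cannot be set against it. In a fit without the mouse as a block 2 of 9 passed, and without mouse 483 the count was 3. All 4 mice were of batch 2022_A.

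Receptor signalling genes rose in 13 of 26 and fell in none of the 26 as deposited (14 rose and 4 fell after rescaling). The adhesion receptor Cd2 (1.93) and Cd5 (1.43) were among them. Naive T cell genes rose in 9 of 11, with the homing receptor Ccr7 at 2.09, S1pr1 at 1.93 and Foxp1 at 1.72. Each of these was beyond the largest change of a member, 1.45, and the median of the B cell list was 1.92. In which blood cells these transcripts lay was not tested. Of the variable segments 11 of 13 rose. CD8 effector genes rose in 5 of 11, and Zbtb7b was lower after rescaling (-0.67, adjusted p = 9.0e-04) but did not pass as deposited (-0.15, adjusted p = 0.753). B cell genes rose in 15 of 15 and NK cell genes in 5 of 12, while 14 of 14 neutrophil and 7 of 10 platelet genes fell. The summed neutrophil level had a median of 1055 TPM at week 18, against 7302 TPM at week 6, and its part was not tested.

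Compared with control mice over week 0 to 18, TOTO mice showed no member that passed (0 of 9 by limma, with 0.0951% of all genes called and 44 at an unadjusted p under 0.05; after rescaling 0 of 9, where 0% of all genes were called). The differences ran from -0.15 to 0.03 as deposited and from 0.13 to 0.32 after rescaling, so that their direction depended on the scale, and leaving out single mice moved them between -0.43 and 0.49. In the 3 control mice alone 0 of 9 members passed (0.0665% of all genes called, 179 at an unadjusted p under 0.05; after rescaling 0 of 9 and 0% of all genes). Their Trac was 10.6, 12.8 and 26.3 TPM at week 18, against 15.8, 40.5 and 50.5 TPM at week 0. As deposited all 9 members had negative mean changes (median -0.97, beside -0.67 over all genes). After rescaling the median was -0.15, and Cd3d was positive (0.07).

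At the last library of each CML mouse the differences of the members from control mice lay on both sides of 0. Against the change of control mice to week 18, 0 of 9 passed by limma (0.124% of all genes called, 220 at an unadjusted p under 0.05; after rescaling 0 of 9, where 7.09% of all genes were called), with differences from -0.58 (Trbc1) to 0.38 (Cd8a). Among the coreceptors Cd8a was at 0.38 ± 0.83 (SE), Cd8b1 at 0.37 ± 0.82 and Cd4 at -0.50 ± 0.74. Differences between members were not tested. CML mouse 542 had Trbc1 at 0.0348 TPM at week 16, its last week, against 16.0 TPM at week 0. Cd4 was lower at the last week than at week 0 in 6 of 6 CML mice and in 3 of 3 control mice. In the 2 CML mice of 2021_E the median over members was -0.48, against -1.21 in the 2 control mice of that batch. In 2022_A it was -0.71 in 2 CML mice against -0.48 in 1 control mouse, and it was -1.92 in the 2 CML mice of 2022_B, which held no control mouse.

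The balance of the coreceptors was followed as log2(Cd4 + 1) minus log2(Cd8a + 1), both in TPM, which needs no scaling factor between libraries when levels are well above 1 TPM. At the last week it was -1.61, -1.56, -1.99, 0.08, -1.86 and -1.17 in CML mice 477, 480, 484, 487, 541 and 542, against -0.18, -0.29 and -0.57 in the 3 control mice at week 18. The only CML mouse near the controls was 487, whose human BCR-ABL stayed within the control range. The other 5 lay below the lowest of 56 control libraries of all weeks (-1.14). In linear terms Cd4 TPM was 0.193 to 1.07 times Cd8a TPM in the 3 CML mice of week 18, against 0.625 to 0.836 times in controls.

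Tested as a change from week 0, the balance moved by -0.74 ± 0.87 (SD, n = 6, lower in 5 mice) in CML mice and by 0.14 ± 0.43 (n = 3) in control mice. The difference of -0.88 did not pass (two-sided exact permutation p = 0.179, adjusted over 9 comparisons 0.625). Without CML mouse 487 the difference was -1.20 (exact permutation p = 0.0179, adjusted 0.161), and without any 1 other mouse it lay between -1.13 and -0.71. With 0.1 TPM added in place of 1 it was -1.37 (exact permutation p = 0.0952). In batch 2021_E the change was -1.19 in 2 CML mice against 0.05 in 2 control mice. In 2022_A it was -1.13 in 2 CML mice against 0.33 in 1 control mouse, and in 2022_B it was -0.66 in CML 542 and 0.86 in CML 487. The last week also differed from the weeks before it, since the 3 CML mice of week 17 lay between -1.23 and -0.61.

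In TKI mice the balance was lower late in the course than at week 0, with steps in both directions. Its median was -0.23 at week 0, -0.86 at week 4, -0.63 at week 5, -0.95 at week 6, -1.13 at week 9, -1.06 at week 10, -1.32 at week 11, -1.07 at week 12, -1.55 at week 13 and -1.36 at week 16, when 3 mice were left. From week 11 on, 19 of 22 TKI libraries lay below the lowest control library, while 0 of 12 TOTO libraries from week 12 on did. At week 8 it was 2 of 4 TOTO libraries, those of mice 476 and 483. The step across the treatment was small, -0.20 ± 0.39 (SD, n = 7, lower in 5 mice, exact sign-flip p = 0.313, adjusted 0.625). With 0.1 TPM added it was -0.04 and higher in 5 of 7 mice (exact sign-flip p = 0.781), so that its direction in most mice depended on this setting. The step of -0.20 did not differ detectably from the -0.48 ± 0.37 of 5 CML mice over the same weeks (difference 0.28, exact permutation p = 0.244). After nilotinib it moved by -0.27 ± 0.41 (n = 6, lower in 4 mice, exact sign-flip p = 0.156), or by -0.68 with 0.1 TPM added (exact sign-flip p = 0.0625).

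In TOTO mice the balance was -0.31, -0.41, -0.34 and -0.72 at week 18, in the range of the 3 controls but for 1 mouse. Its change from week 6 was 0.14 ± 0.33 (SD, n = 4, exact sign-flip p = 0.625, where 4 mice allow no p below 0.125). The change from week 0 differed from that of controls by -0.06 (exact permutation p = 0.886). Over the first 6 weeks it moved by -0.12 ± 0.51 in 17 mice without tetracycline (permutation by exact sign flips, p = 0.347). With Cd8b1 in place of Cd8a the change was -0.33 (exact sign-flip p = 0.0229, adjusted 0.206), and with 0.1 TPM added it was -0.27 (exact sign-flip p = 0.0768). Counted from week 1, a setting chosen after seeing the data, it was -0.34 (exact sign-flip p = 0.00584, adjusted 0.0526). Counted from week 0, mean changes were -0.50 in TKI mice of both batches that hold them and -0.07 in TOTO mice. They were 0.46, 0.01 and 0.41 in CML mice of 2021_E, 2022_A and 2022_B. The controls moved by 0.14 ± 0.43 from week 0 to week 18 (exact sign-flip p = 0.75, where 3 mice allow no p below 0.25). All 9 balance comparisons as set out here had adjusted p-values of 0.625 or more.

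**Figure D3:**
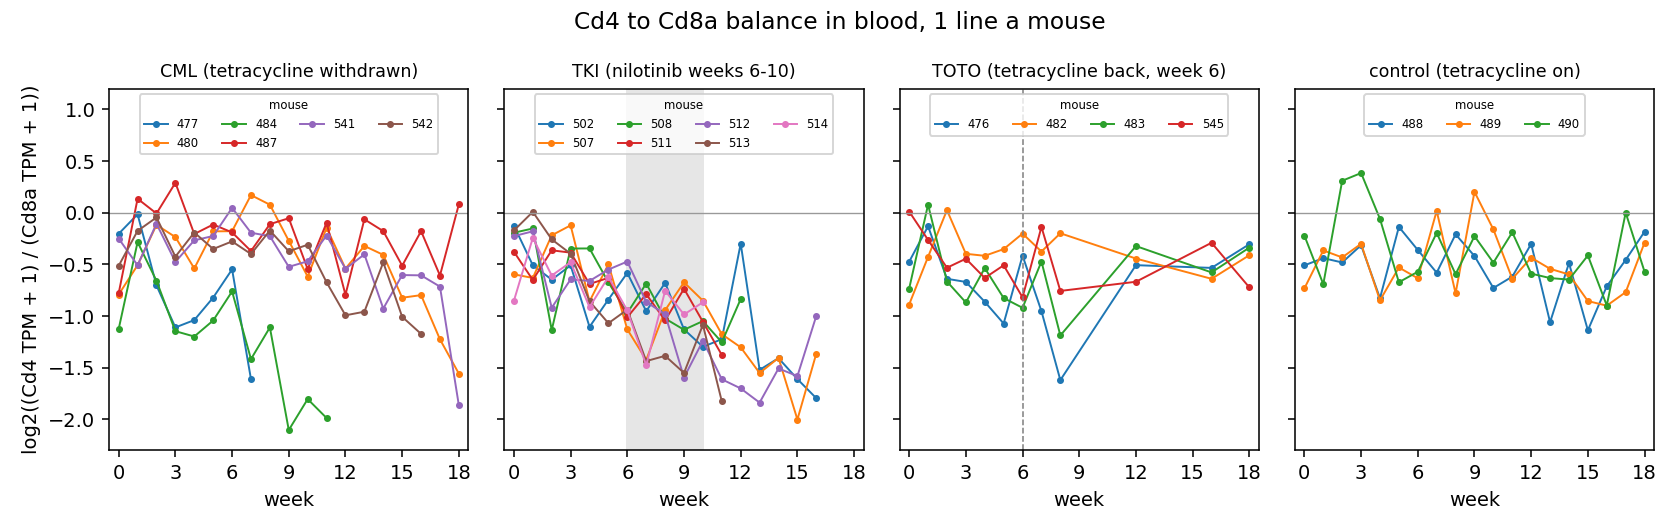
Cd4 to Cd8a balance, log2(Cd4 TPM + 1) minus log2(Cd8a TPM + 1), by week, 1 line per mouse and 1 panel per cohort. CML lines other than that of mouse 487 end between -1.99 and -1.17, and TKI lines lie mostly below the lowest control value of -1.14 from week 11 on.

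The coreceptors were also set against Trac. After nilotinib Cd8a over Trac was higher in 6 of 6 TKI mice (log2 change 0.55 ± 0.32, SD) and Cd8b1 over Trac in 6 of 6 (0.44 ± 0.20), as was Cd3e over Trac (0.49 ± 0.17). Cd4 over Trac was higher in 4 of 6 (0.28 ± 0.60), or in 2 of 6 with 0.1 TPM added (-0.16 ± 0.75). Trac thus stood lower relative to Cd3e and both CD8 chains in each of these mice. At the last week of CML mice Cd8a over Trac had changed by 0.74 ± 0.77 (n = 6, higher in 5) from week 0, against 0.02 ± 0.05 in 3 control mice. Cd8b1 over Trac had changed by 0.89 ± 0.76 (higher in 5 of 6), against 0.19 ± 0.03 (higher in 3 of 3). Mouse 542 gave the highest value of each, 1.92 and 2.20. Cd3e over Trac was also higher in 6 of 6 CML mice (0.45 ± 0.40), against 0.07 ± 0.07 in the controls (higher in 3 of 3).

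The 2 chains of CD8 did not keep a fixed ratio. Cd8a over Cd8b1 was lower at week 6 than at week 0 in 17 of 17 mice without tetracycline (-0.21 ± 0.10, SD), against -0.10 ± 0.19 in 3 control mice (lower in 2). By week 18 it was lower in 3 of 3 controls (-0.16 ± 0.07). In TOTO mice it was higher at week 18 than at week 6 in 4 of 4 (0.09 ± 0.07), but still lower than at week 0 in 4 of 4 (-0.15 ± 0.07). Each of these directions held with 0.1 TPM added, and none was tested against controls.

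CML mouse 542 departed from all other mice in its receptor genes, a pattern singled out after its values were seen. From week 10 to week 16 its Trac was 6.66, 2.73, 1.81, 0.644, 0.478, 1.24 and 0.665 TPM. Its Trbc1 was 4.25, 1.69, 0.731, 0.299, 0.167, 0.119 and 0.0348 TPM in the same weeks. Trbc2 did not follow, with 12.3, 9.58, 9.25, 7.21, 5.72, 12.1 and 16.6 TPM. Trac and Trbc1 thus ended below 1 TPM while Trbc2 ended above its value of week 10.

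In log2(TPM + 1), Trbc2 minus Trbc1 was 4.09 at week 16, against 1.34 at week 10, in this mouse. In the 280 libraries of the other mice it lay between 0.451 and 1.76, leaving out control 490 at week 17. Trbc2 over Trac in TPM was 25.0 at week 16, against 1.85 at week 10 and 1.38 to 3.90 in the other mice. The differing bases shown above bear on this, because reads from the parts that are identical cannot be given to either copy.

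Variable segments and gamma chain genes of the same mouse changed in the same weeks. Trbv1, a beta chain variable segment, was 0.863, 1.84, 3.17, 3.39, 2.32, 6.13 and 8.04 TPM from week 10 to week 16. Its share of summed Trbv TPM was 5.80, 26.0, 43.2, 46.8, 32.3, 44.6 and 62.6%, against at most 27.3% in the libraries of other mice. The gamma chain constant genes Trgc4 and Trgc2 were 3.16 and 2.43 TPM at week 16, against 0.104 and 0.0452 TPM at week 10, and the gamma chain variable segment Trgv1 was 3.83 TPM against 0.0694 TPM. Of 14605 genes 3 exceeded every library of the other mice at both weeks 15 and 16, and these were Trgc2, Trgv1 and Trgc4. The delta chain constant gene Trdc went the other way, with 0.0458 TPM at week 16 against 0.255 TPM at week 10. Cd3e was 2.18 TPM and Cd8a 1.68 TPM at week 16, and the B cell gene Cd79a was 2.24 TPM, against 98.1 TPM at week 10. The gamma chain constant genes resemble each other in sequence, and their separate TPM values are therefore uncertain. This is 1 mouse in 1 batch, with no replicate and no test.

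**Figure D4:**
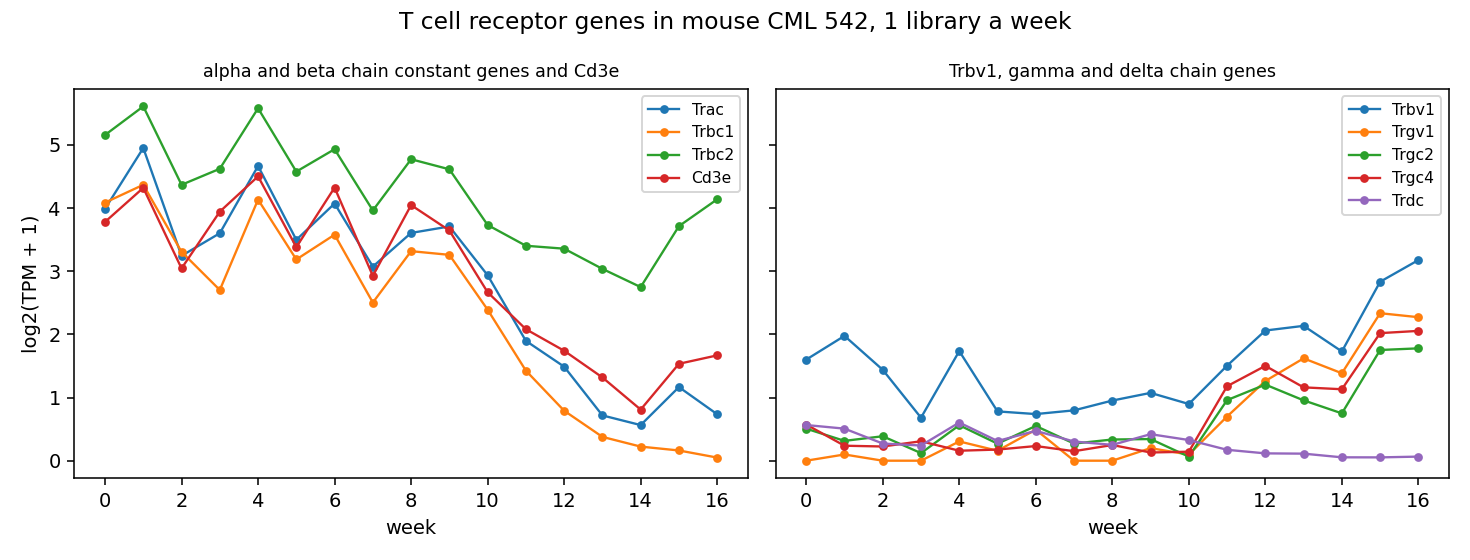
Receptor genes of CML mouse 542 as log2(TPM + 1) by week, 1 library a week. The left panel holds Trac, Trbc1, Trbc2 and Cd3e and the right panel Trbv1, Trgv1, Trgc2, Trgc4 and Trdc. Trac and Trbc1 end below 1 TPM at week 16 while Trbc2 ends at 16.6 TPM, and Trbv1, at 8.04 TPM, and the gamma chain genes are higher at week 16 than at week 10.

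Members varied together within mice. After rescaling and centring on each mouse, Pearson correlations between pairs of members, over the libraries other than that of control 490 at week 17, ran from 0.57 (Cd4 and Cd8b1) to 0.94 (Cd8a and Cd8b1). These points share mice and libraries and are given without a p. Outside the members, the genes whose pattern was most like the mean of Cd3d, Cd3e and Cd3g over all libraries were Cd6 (r = 0.84), Sla2 (0.77) and Ms4a6b (0.75), followed by Nxpe3, Gm19585, Rcbtb1, Tcf7, Aebp2, Znrf2 and Fgf13 (0.71 to 0.73). The library of control 490 at week 17 decided this list. Without it the 10 genes were Cd247 (0.94), Tcf7 (0.93), Skap1 (0.92), F2rl1, Ms4a4b, Nsg2, Lck, Lef1, Cd6 and Cd5 (0.86 to 0.91). Cd247 encodes the CD3 zeta chain, Lck the kinase that phosphorylates the CD3 chains, and Tcf7 and Lef1 transcription factors of naive T cells.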

How the data were processed

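Blood RNA was depleted of ribosomal RNA and sequenced with a reverse stranded kit when its RNA integrity number exceeded 4.0, per the labels' protocols, which describe extraction from whole blood although the tissue label names mononuclear cells. The authors deposited TPM values for 14605 genes, without counts. The submitters' processing notes name GRCm39, STAR and Salmon, without versions. Each column was assigned to its mouse and week by its name, leaving 0 unassigned, and 14537 gene identifiers were matched to GENCODE M39 for symbols and coordinates.

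Values were taken as log2(TPM + 1), and the 10519 genes with a mean of at least 1 TPM were tested. Each mouse gave 1 change between 2 weeks, so that the mouse was a block. The pairing comes from the mouse number in the labels. Deviations of the libraries of a mouse from their group means correlated with a median of 0.11 in 17 mice at weeks 0 and 6 and of 0.16 in 7 TKI mice at weeks 6 and 10. The tests used limma 3.58.1 in R 4.3.3, with lmFit and eBayes with a trend, and a gene was called at a Benjamini-Hochberg adjusted p of at most 0.05 over all genes. The fit was tested on simulated data. The Cd4 to Cd8a balance was tested by two-sided exact sign flips or exact permutation of mouse labels, adjusted over 9 comparisons, in Python 3.11.15 (numpy 2.4.6, pandas 2.3.3, scipy 1.17.1, matplotlib 3.10.9). Input was read with the R package data.table (version 1.17.8).

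Every comparison was repeated on values rescaled by median-ratio size factors, because the median of all genes moved by up to 0.67 (log2). Other alternatives were a pseudocount of 0.1 TPM, no filter on mean TPM, no block, batch as a term, neighbouring weeks and leaving out each mouse. Comparisons share mice, the CML and control mice above all, so that their results are not independent. Genes outside the members were named as the 3 of a list with the smallest p. One gene that this rule selects is not reported here. The members and lists were chosen with earlier results of these data known. The gamma-delta T cell list had 5 of 10 genes in the table and none tested. Of 10 genes of the CD4 lineage and regulatory T cell list 1 was tested.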

Additional observations from a re-analysis of the deposited data

Results flagged for a closer look

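In TKI mice from week 6 to week 10, 7 member genes had a change in mouse 511 that lay far from the other 6 mice by Dixon's criterion. Mouse 511 changed by -0.0602 in Cd3d, 0.0693 in Cd3e, 0.0437 in Cd3g, 0.2241 in Cd8b1, -0.0248 in Trac, 0.0228 in Trbc1 and 0.0054 in Trbc2 (log2 of TPM + 1). The other mice ranged from 0.762 to 1.21 in Cd3d. The 7 values come from the same 2 libraries and are not independent. In the same mouse the summed neutrophil level was 7372 TPM at week 10 against 16169 TPM at week 6, and the summed B cell level 644 against 1150 TPM. Their part was not tested.

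The change of Trbc2 over Trbc1 from week 0 to the last week was 3.0188 in CML mouse 542, against -0.126 to 0.334 in the other 5 CML mice. In all, 66 groups were examined and 8 values stood apart. Chance alone marks about 1 group in 20.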

How the results depend on the processing

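Values are members called of 9. For induction (3) the count was 8 after rescaling, 5 with no replicate block and 9 with rescaling and week 1 in place of week 0, a setting chosen after seeing the data. For nilotinib (9) it was 0 with no replicate block and 0 with week 9 in place of week 10. For nilotinib minus CML (0) it was 8 after rescaling. After nilotinib (8) it was 2 without a filter on mean TPM and 1 with week 11 as the last week of every mouse, also chosen after seeing the data. For shut-off (9) it was 2 with no replicate block. The block changed the other counts of members by less than 1.5 times. Leaving out single mice gave 0 to 7 for induction, 5 to 9 for nilotinib, 0 to 1 for nilotinib minus CML, 3 to 9 after nilotinib and 3 to 9 for shut-off, and 0 in the other 4 comparisons. Induction had 0 without TOTO mouse 482 or 483, 1 without CML 477, 480, 484 or 487 or TOTO 476 or 545, 5 without TKI 508 or 511 and 7 without TKI 502. Nilotinib had 5 without TKI 508 and 6 without TKI 502 or 514. Shut-off had 6 without TOTO 476. The causes were not tested. No result changed direction past its threshold under any alternative run.

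With Cd8b1 in place of Cd8a the balance of control mice from week 0 to 18 moved by -0.0244 in place of 0.14. Leaving out single mice, the change of the balance ran from -0.17 to -0.07 for induction, -0.24 to 0.0069 for induction minus control, -1.20 to -0.71 for the last week of CML minus control, -0.28 to -0.10 for nilotinib, 0.14 to 0.39 for nilotinib minus CML, -0.37 to -0.18 after nilotinib, -0.0009 to 0.26 for shut-off, -0.31 to 0.21 for TOTO minus control and -0.0119 to 0.38 for control age. With no replicate block the CML difference of -0.88 had an exact permutation p of 0.0395 (adjusted 0.356), and counted from week 1, also chosen after seeing the data, it was -1.28 (exact permutation p = 0.0238, adjusted 0.214). The depth behind the TPM values is unknown, and differences near 1 TPM, as in Cd4, are the least certain.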

Other observations

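Trbv13-2 was the most abundant beta chain variable segment, with 19.4% of summed Trbv TPM on average. Its highest share, 47.8%, was in CML mouse 541 at week 17. In libraries other than those of CML mouse 542 and of control 490 at week 17 the median share was 19.6%. Of 52 variable segments in the table, 30 alpha chain segments were all below a mean of 1 TPM and 13 of 19 beta chain segments reached it.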
